A study of Homo sapiens with 21 samples.

Results

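The axon guidance ligands and receptors of A673 Ewing sarcoma cells were examined across all 21 RNA-seq libraries of an EWS/FLI knockdown and rescue experiment. Members were every protein-coding gene whose symbol begins with EPHA, EPHB, EFNA, EFNB, SEMA, PLXN, UNC5, ROBO or SLIT plus a number, together with NRP1, NRP2, NTN1, NTN4, DCC and NEO1, with the SLITRK genes left out. Of 71 such genes in the count table, 69 averaged 1 or more counts over the libraries and were kept, out of 30549 genes that met this minimum. SLIT1 and the readthrough gene EFNA4-EFNA3 did not meet it. The 69 genes comprised 14 Eph receptors, 8 ephrins, 7 class 3 semaphorins, 13 other semaphorins, 2 neuropilins, 9 plexins, 8 netrins and netrin receptors, and 6 SLIT and ROBO genes. UNC50 and UNC5CL, whose symbols begin with UNC5 but which are not netrin receptors, made up the last 2.

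A673 is an established Ewing sarcoma line that carries the EWS/FLI fusion. Each of 7 groups held 3 libraries, 1 from each replicate set. In iLuc cells the shRNA was directed against luciferase, so the fusion was left in place, and in iEF cells the shRNA was directed against EWS/FLI. Both of these groups also received an empty vector. The other 5 groups carried the EWS/FLI shRNA and a FLAG-tagged cDNA. WT-EF was the full-length fusion. DAF had the tyrosines in the amino-terminal repeats of the EWS domain changed to alanine, with its last SYGQ stretch left intact. In mut9 most of the interior of the EWS domain was deleted, DAF-mut9 was its tyrosine-to-alanine form, and Δ22, the negative control, lacked the EWS domain. Cells received the shRNA on day 1, then the cDNA on day 5, and selection in 2 µg/ml puromycin with 400 µg/ml hygromycin ended on day 16. All groups therefore went through the same double selection, and the data come from a single cell line.

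Guidance cues are secreted or membrane-bound ligands that steer growing axons and migrating cells by attracting or repelling them. Ephrins bind Eph receptor tyrosine kinases on neighbouring cells, and the ephrins signal in turn within the cell that carries them. Most secreted semaphorins act on plexins through neuropilin co-receptors, whereas many membrane-bound semaphorins bind plexins directly. Netrins bind DCC, neogenin and the UNC5 receptors, and SLIT proteins bind the ROBO receptors. Outside the nervous system the same genes take part in vessel growth, in the movement of neural crest cells and in bone and cartilage development.

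Library totals lay between 32897083 and 46210348 counts, so that a level of 1 CPM (the count scaled to library size, with TMM factors) stood for 32 to 45.2 counts. FLI1, whose 3′ part is in the fusion, was at 20.8, 20 and 21.1 CPM in the iEF libraries and 61.3, 60.6 and 89 CPM in the iLuc libraries, and these groups did not overlap. FLI1 levels also differed between the constructs. They were 21.9, 25.2 and 26.5 CPM in WT-EF, 28.3, 33.4 and 30.4 CPM in mut9 and 36.2, 39.8 and 35.1 CPM in DAF. In DAF-mut9 they were 34.6, 37 and 37.3 CPM and in Δ22 41.3, 45.2 and 62 CPM. Every mutant library was above every WT-EF library, and the difference of DAF from WT-EF was 0.60 ± 0.13 on the log2 scale, with an adjusted p of 0.00173. In the same edgeR test FLI1 in WT-EF was not called against iEF (0.24 ± 0.13, adjusted p = 0.196). It was lower in WT-EF than in iLuc (-1.51 ± 0.13, adjusted p = 7.36e-08). Each mutant was called higher than iEF, from 0.57 for mut9 to 1.25 for Δ22. The counts do not tell the endogenous transcript from the cDNA, and the part of these FLI1 levels in the differences between constructs was not tested. Of 9 Ewing sarcoma markers, 7 to 8 were at 1 CPM or more in every group. CD99 was the marker that fell short in every group, with at most 8 counts in any library and a mean of 0.0567 CPM in iLuc. The reason for its low counts was not tested. Of 6 endothelial markers 5 were tested, of which 2 averaged 1 CPM or more in iEF and none did in iLuc. Their summed level was 4.19 to 10 CPM in iEF, 0.0663 to 0.251 CPM in iLuc and 9.61 to 12.1 CPM in DAF. TIE1 made up most of this sum, at 7.89, 2.35 and 5.65 CPM in iEF, while the endothelial cadherin gene CDH5 stayed at 0.233, 0.282 and 0.0811 CPM. The third iEF library stood apart in the integrin gene ITGAM, with 2.57, 2.1 and 25 CPM in the iEF libraries.

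Removal of the fusion was accompanied by change in most of these genes. With endo-EF, that is in iLuc relative to iEF, 18 of the 69 members were higher and 29 were lower, at an adjusted p below 0.05 in edgeR's quasi-likelihood test. Over all genes tested, 18.7% were higher and 22.4% were lower. All members are protein-coding, and of 16417 protein-coding genes tested 4056 were higher and 4919 lower, larger shares than over all genes. Against protein-coding genes, the share of members that were higher (26.1%) shows little or no excess. The excess lies in the members that were lower (42%), and is smaller than over all genes. Of the protein-coding genes 7442 were not called, so most of them changed as well. For the other comparisons only shares over all genes tested are given. The median log2 fold change was -0.42 over the members and 0.01 over all genes tested. All 7 plexins that were called and both neuropilins were lower with endo-EF, while the netrin receptors DCC, NEO1, UNC5A and UNC5D were higher. In bulk RNA, a lower level in every cell and a smaller number of expressing cells cannot be told apart. Fold changes are given as log2 values ± SE, with 3 libraries per group and p-values adjusted by Benjamini-Hochberg over all genes tested. The SE was derived from the quasi-likelihood test, as the absolute log2 fold change divided by the square root of its F statistic. It is approximate, above all for genes with few counts in a group.

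WT-EF, compared with iEF, gave 17 members higher and 27 lower, against 11.4% and 16.9% of all genes tested. With mut9, 14 were higher and 18 lower, against 6.22% and 8.33%. Without mut9 replicate 2, the count for mut9 was 20 members in both directions together. DAF gave 10 higher and 9 lower, against 3.41% and 4.02% of all genes. For DAF-mut9 the counts were 3 higher and 3 lower, against 1.26% and 2.14%, and for Δ22 they were 3 higher and 2 lower, against 0.881% and 1.79%. These 6 comparisons share the iEF libraries and are not independent of each other.

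**Figure D1:**
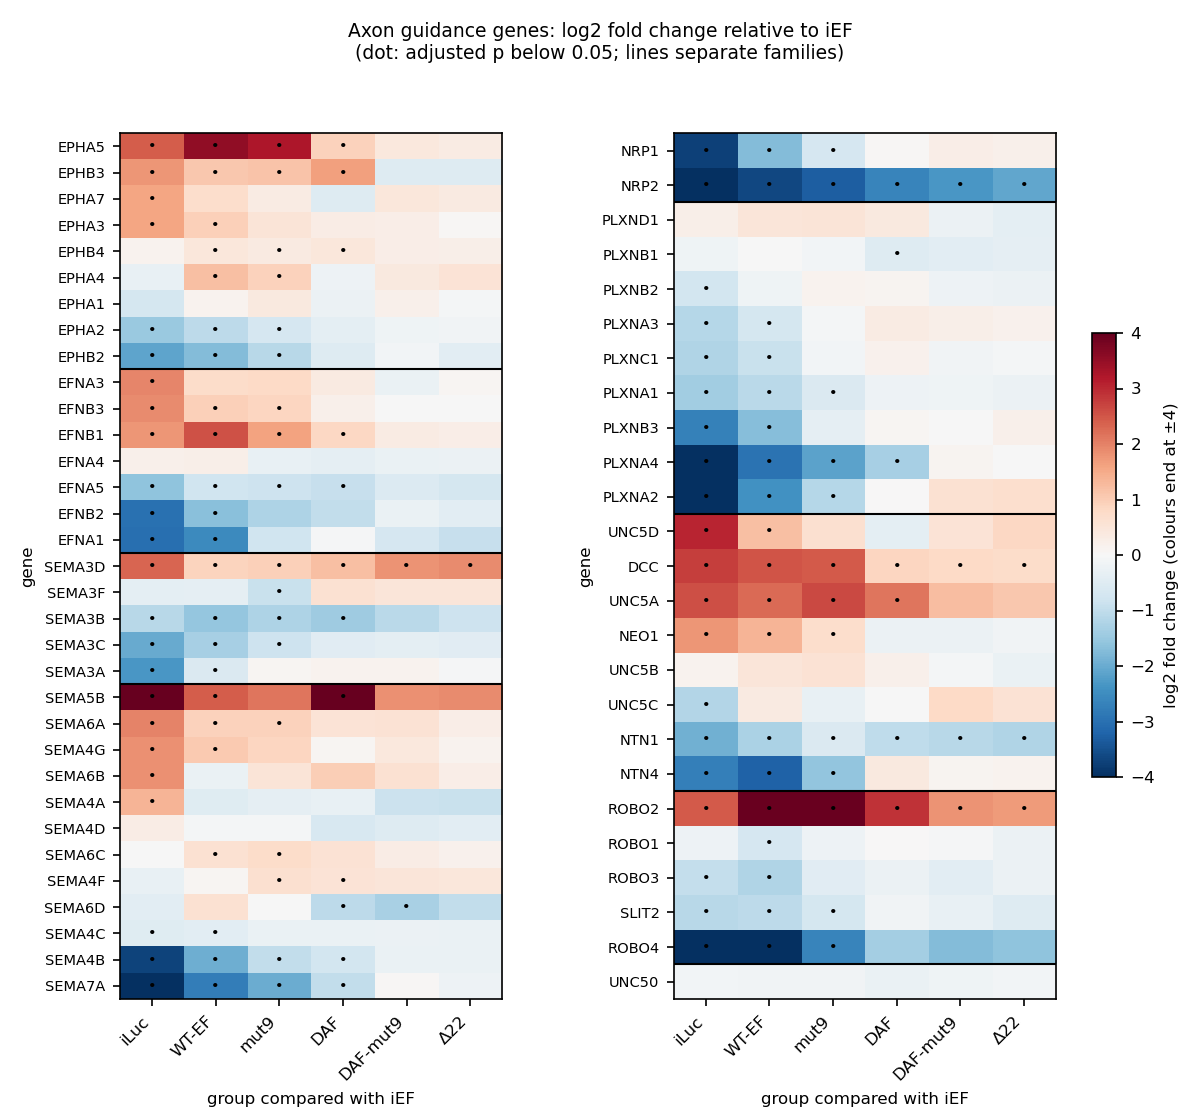
Log2 fold change of the 58 members with a mean of 1 CPM or more in at least 1 group, for iLuc and each construct (columns) relative to iEF, with genes in rows ordered by family and by the iLuc value. Red is higher and blue lower than iEF, colours end at 4 in either direction, dots mark an adjusted p below 0.05, and black lines separate families; the SEMA5B value rests on 5 counts or fewer in all iEF libraries together. Both neuropilins and 7 of 9 plexins are lower in iLuc, and the DAF-mut9 and Δ22 columns hold few dots.

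Netrin receptors were among the members that were higher with endo-EF. DCC (Ensembl ENSG00000187323; chr18:49866567-51062269, hg19), the receptor through which netrin-1 attracts axons, was at 19.3, 20 and 14.4 CPM in the iEF libraries. It was at 127, 153 and 88.4 CPM in iLuc, 91.4, 127 and 90.1 CPM in WT-EF and 90.9, 128 and 79 CPM in mut9. In DAF it was at 28.7, 34.2 and 33.1 CPM, in DAF-mut9 at 29.6, 37.6 and 27.3 CPM and in Δ22 at 27.9, 36.5 and 25.9 CPM. Every library of iLuc, WT-EF and mut9 was therefore above every library of the other 4 groups, and the iEF libraries were the lowest. Relative to iEF there was a log2 fold change of 2.76 ± 0.13, adjusted p = 1.52e-12 for endo-EF, 2.51 for WT-EF and 2.45 for mut9. It was smaller but also past the threshold for DAF (0.85 ± 0.13), DAF-mut9 (0.81 ± 0.13) and Δ22 (0.74 ± 0.13). The Δ22 call was lost without the replicate block (0.75, adjusted p = 0.0741), and also in limma on the authors' ComBat-adjusted counts, which are corrected for replicate set (0.59, adjusted p = 0.0555).

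NEO1 encodes neogenin, the closest relative of DCC. It was at 36.7, 37.6 and 32.6 CPM in iEF, 94.5, 139 and 132 CPM in iLuc and 77.1, 96.1 and 104 CPM in WT-EF. In mut9 it was at 52.4, 58.2 and 62.6 CPM and in DAF at 32.4, 29.2 and 28.1 CPM. NEO1 thus stood highest in iLuc and WT-EF, lower in mut9 and below the iEF range in DAF. It was higher than in iEF with endo-EF (log2 fold change 1.77 ± 0.13, adjusted p = 7.87e-10), WT-EF (1.37 ± 0.13) and mut9 (0.69 ± 0.13), while the DAF value was -0.25 ± 0.13 and was not called.

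UNC5 receptors turn the response to netrin from attraction to repulsion. UNC5A was at 0.7, 0.469 and 0.405 CPM in iEF and 2.8, 2.7 and 4.54 CPM in iLuc (log2 fold change 2.58 ± 0.39, adjusted p = 1.51e-05). In DAF it was at 1.15, 3.68 and 3.16 CPM, again above every iEF library (2.14 ± 0.39). UNC5D was at 1.77, 1.1 and 4.3 CPM in iEF and 18.4, 28.8 and 8.74 CPM in iLuc, with no overlap (log2 fold change 3.06 ± 0.43, adjusted p = 5.59e-06). UNC5C went the other way, from 3.43, 3.54 and 7.7 CPM in iEF to 1.77, 2.87 and 1.4 CPM in iLuc (log2 fold change -1.16 ± 0.34, adjusted p = 0.00939). The UNC5C call was lost without iEF replicate 3 or iLuc replicate 3 (log2 fold changes -0.93 to -0.77, adjusted p = 0.0564 to 0.0746). UNC5B was not called in any comparison with iEF, and its log2 fold changes lay between -0.28 for Δ22 and 0.59 for mut9.

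Both netrin ligands were lower with endo-EF. NTN1, the classical attractant, was at 7.94, 7.88 and 6.46 CPM in iEF and 1.75, 2.25 and 1.9 CPM in iLuc (log2 fold change -1.92 ± 0.21, adjusted p = 1.87e-07). It was at 2.51, 4.1 and 4.47 CPM in DAF and 3.24, 3.8 and 2.75 CPM in Δ22, also below every iEF library. WT-EF (-1.27 ± 0.20), Δ22 (-1.19 ± 0.20), DAF-mut9 (-1.10 ± 0.20) and DAF (-1.02 ± 0.20) each passed the threshold. The mut9 value was -0.59 ± 0.20, with an adjusted p of 0.0499, and was lost when any 1 of the 6 libraries was left out (adjusted p up to 0.251), without the replicate block (adjusted p = 0.0868) and with ComBat-adjusted counts (adjusted p = 0.0744).

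NTN4 (Ensembl ENSG00000074527; chr12:96051583-96184967, hg19) encodes netrin-4, a laminin-binding netrin of basement membranes. It was at 89.8, 174 and 137 CPM in iEF, 17.7, 22.4 and 19.5 CPM in iLuc and 14.7, 12.5 and 14.7 CPM in WT-EF. In mut9 it was at 40.2, 41 and 51.9 CPM, between these levels. In DAF it was at 153, 214 and 152 CPM, in DAF-mut9 at 129, 161 and 139 CPM and in Δ22 at 131, 128 and 179 CPM, ranges that overlapped that of iEF. NTN4 was lower than in iEF with endo-EF (log2 fold change -2.73 ± 0.18, adjusted p = 1.55e-10), WT-EF (-3.22 ± 0.19) and mut9 (-1.57 ± 0.17).

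**Figure D2:**
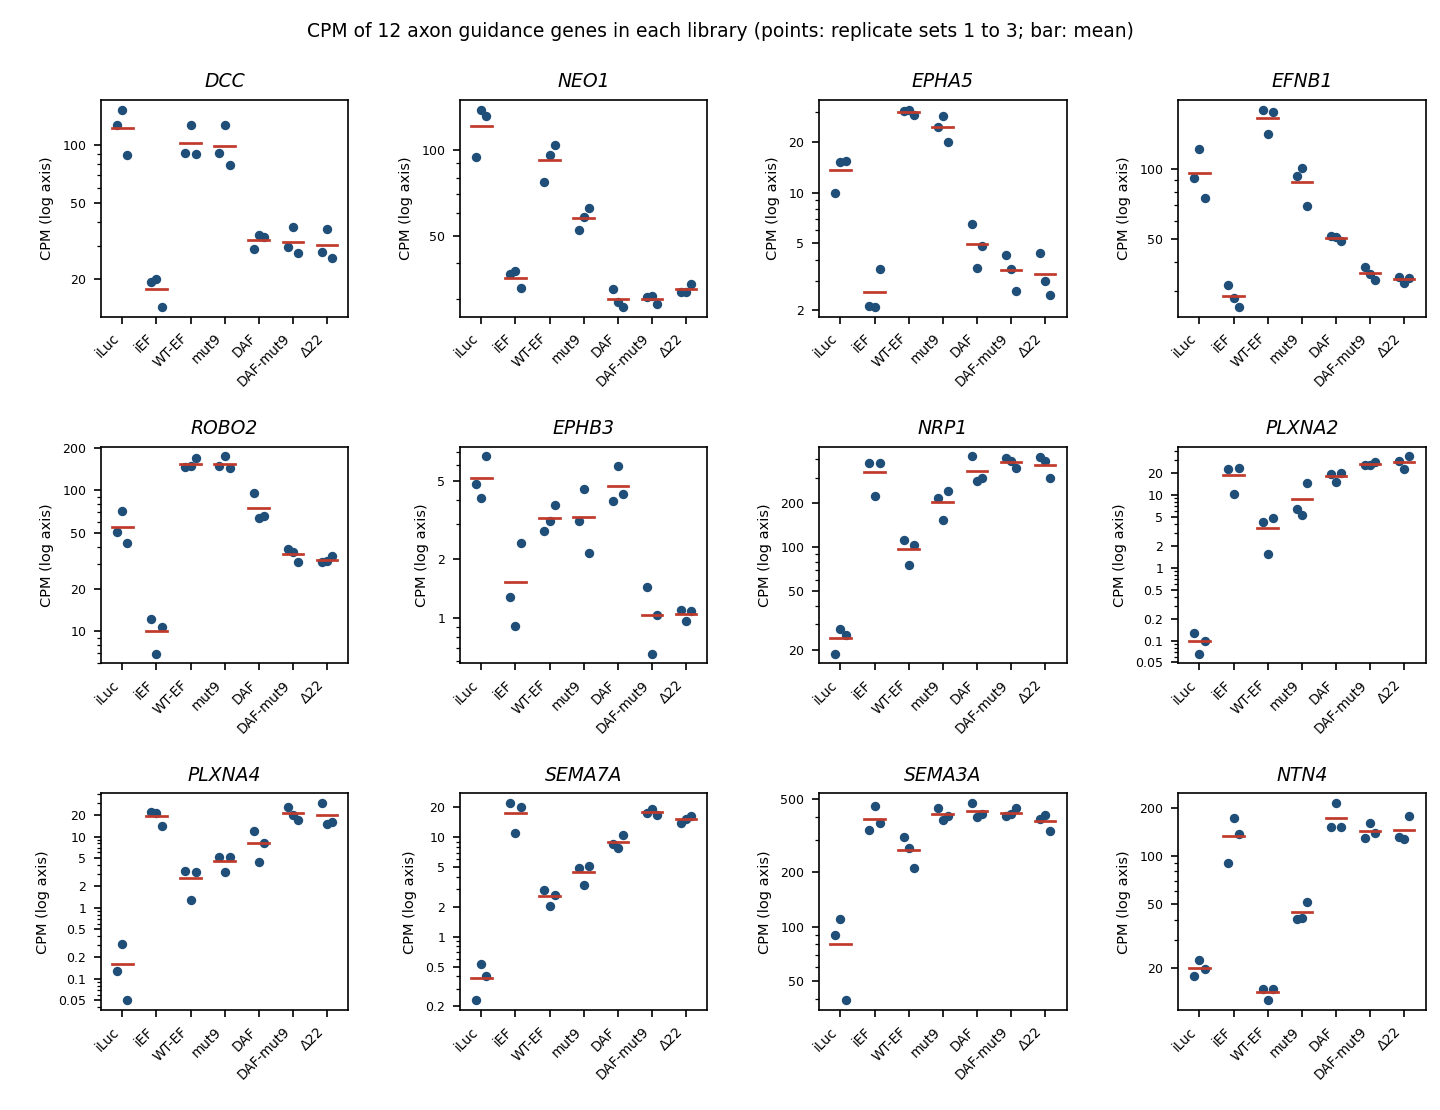
CPM of 12 members (vertical axes, log scale) in the 7 groups (horizontal axes). Points are single libraries and bars are the means of 3. DCC, NEO1, EPHA5 and EFNB1 are higher in iLuc, WT-EF and mut9 than in iEF, while NRP1, PLXNA2, PLXNA4, SEMA7A and NTN4 are lower in iLuc and WT-EF.

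EWS/FLI is known to bind runs of the tetranucleotide GGAA. Runs of at least 6 GGAA units on either strand lay within 50000 bases of the gene start for 7 of the 18 members that were higher with endo-EF (38.9%), 4 of the 29 that were lower (13.8%) and 3 of the 22 that were not called (13.6%). Over all protein-coding genes tested, the shares were 21.4%, 16% and 14.8% for the same classes. This search was added after the expression values were seen, it gives the presence of the letters in the reference and not binding, and no test was made. The 3 longest runs within this distance of members that were higher, those of DCC, EPHA5 and UNC5A, are shown with 40 bases on either side. Sequences are from GRCh37, written on the strand that reads GGAA (minus for DCC and EPHA5, plus for UNC5A), with the GGAA run in capitals.
DCC repeat, chr18:49913906-49914041: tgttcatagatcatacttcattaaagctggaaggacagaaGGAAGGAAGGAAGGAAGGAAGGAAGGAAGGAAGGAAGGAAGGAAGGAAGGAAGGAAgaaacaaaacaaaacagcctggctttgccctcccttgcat
EPHA5 repeat, chr4:66564301-66564432: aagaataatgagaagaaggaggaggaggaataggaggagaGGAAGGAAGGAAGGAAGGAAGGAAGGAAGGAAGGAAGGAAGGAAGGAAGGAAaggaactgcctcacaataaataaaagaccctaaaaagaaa
UNC5A repeat, chr5:176285687-176285814: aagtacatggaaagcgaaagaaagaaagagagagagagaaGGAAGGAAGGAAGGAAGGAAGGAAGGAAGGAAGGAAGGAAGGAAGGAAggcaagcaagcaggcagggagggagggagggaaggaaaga
The DCC run holds 14 units, lies 47406 bases downstream of the gene start and falls inside the gene but in none of its exons. The EPHA5 run holds 13 units and lies 28153 bases upstream of the gene start, in no protein-coding gene. The UNC5A run holds 12 units and lies inside the gene, 48230 bases downstream of its start and outside its exons. The other 4 members with a run among those that were higher were EPHA7 and SEMA5B with 9 units each, EFNB3 with 8 and SEMA4G with 7. The 4 members with a run among those that were lower were EPHB2 and NTN4 with 10 units each, SEMA4B with 9 and NRP1 with 6. Of the longest runs found for each member, that of SEMA4B lay nearest to the gene start, 3784 bases upstream. The longest run near any member, of 15 units, lay 20506 bases from the start of EPHA1, which was not called. The 8 letters GGAAGGAA, on either strand, stood in 5 of 92 member promoters (5.43%) and in 3.67% of 35116 promoters, each 300 bases long, from RefSeq (GRCh38.p14). CCGGAAG, the core of a single high-affinity ETS site, stood in 4 member promoters (4.35%) and in 10.3% of all. The promoters belong to 60 of the member symbols.

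Eph receptors split between both directions with endo-EF, with 4 of 14 higher (28.6%) and 3 lower (21.4%), shares near the 18.7% and 22.4% of all genes. EPHA5 (Ensembl ENSG00000145242; chr4:66185281-66536213, hg19), an ephrin-A receptor of the developing brain, was at 2.12, 2.1 and 3.51 CPM in iEF and 10, 15.3 and 15.5 CPM in iLuc. It was at 30.4, 31.1 and 28.8 CPM in WT-EF and 24.7, 28.5 and 20 CPM in mut9, above every iLuc library. In DAF, DAF-mut9 and Δ22 it was at 6.52, 3.56 and 4.85 CPM, 4.24, 3.51 and 2.62 CPM and 4.36, 3 and 2.45 CPM. EPHA5 was thus highest in iLuc, WT-EF and mut9, whose libraries were all above those of the other 4 groups. Its difference from iEF was a log2 fold change of 2.41 ± 0.27, adjusted p = 2.49e-07 for endo-EF, 3.54 ± 0.27 for WT-EF and 3.23 ± 0.27 for mut9. The DAF difference was 0.93 ± 0.27 and was lost without DAF replicate 1, DAF replicate 3, iEF replicate 1 or iEF replicate 2 (log2 fold changes 0.71 to 0.93, adjusted p = 0.102 to 0.213). It was also lost with ComBat-adjusted counts (adjusted p = 0.0554) and with only the compared groups in the fit (adjusted p = 0.079).

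EPHB3, a receptor for B-type ephrins, differed from this pattern in DAF. It was at 1.28, 0.907 and 2.4 CPM in iEF, 4.85, 4.09 and 6.66 CPM in iLuc and 3.93, 5.94 and 4.28 CPM in DAF. WT-EF had 2.79, 3.12 and 3.78 CPM and mut9 3.14, 4.57 and 2.15 CPM. In DAF-mut9 it was at 1.44, 0.659 and 1.03 CPM and in Δ22 at 1.1, 0.963 and 1.09 CPM. The iLuc and DAF libraries were all above the iEF libraries, and those of Δ22 and DAF-mut9 were within or below the iEF range. EPHB3 was higher with endo-EF (log2 fold change 1.77 ± 0.33, adjusted p = 0.000172) and DAF (log2 fold change 1.65 ± 0.33, adjusted p = 0.00341). The values for WT-EF (1.09 ± 0.33) and mut9 (1.14 ± 0.33) were past the threshold, but the first was lost without WT-EF replicate 3, iEF replicate 1 or iEF replicate 2 (log2 fold changes 0.82 to 1.03, adjusted p = 0.0601 to 0.0953) and the second without iEF replicate 1, iEF replicate 2, mut9 replicate 1 or mut9 replicate 2 (log2 fold changes 0.75 to 1.15, adjusted p = 0.0528 to 0.213). With only the compared groups in the fit, the mut9 value had an adjusted p of 0.134.

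EPHA7 was at 16.5, 5.66 and 11.5 CPM in iEF and 23.8, 41 and 32 CPM in iLuc (log2 fold change 1.58 ± 0.31, adjusted p = 0.000262). EPHA3 was the fourth receptor that was higher with endo-EF (1.57 ± 0.19) and was also higher with WT-EF (0.96 ± 0.19). EPHA2, a receptor for ephrin-A1 found in many epithelia and tumours, went from 175, 171 and 180 CPM in iEF to 59.5, 71.3 and 56.3 CPM in iLuc (log2 fold change -1.49 ± 0.12, adjusted p = 4.19e-09). EPHB2 went from 49.3, 32 and 42 CPM to 8.37, 9.53 and 10.5 CPM (log2 fold change -2.10 ± 0.21, adjusted p = 7.04e-08). Neither pair of groups overlapped, and WT-EF and mut9 gave smaller reductions, of -1.04 and -0.66 for EPHA2 and of -1.75 and -1.12 for EPHB2. EPHB1, below 2 CPM in every library, was also lower (-2.37 ± 0.52).

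EPHA4, which binds ephrins of both classes, was at 66.9, 89.7 and 104 CPM in iEF and 49.3, 115 and 53.6 CPM in iLuc, ranges that overlapped. It was at 166, 242 and 189 CPM in WT-EF and 141, 192 and 154 CPM in mut9, all above the iEF libraries. EPHA4 was called for WT-EF (log2 fold change 1.20 ± 0.23, adjusted p = 0.000351) and mut9 (log2 fold change 0.91 ± 0.23, adjusted p = 0.00775), and its endo-EF value was -0.29 ± 0.23, not called. EPHB4 showed small increases with WT-EF (0.44 ± 0.11), mut9 (0.37 ± 0.11) and DAF (0.45 ± 0.11). The call was lost without iEF replicate 2, iEF replicate 3, mut9 replicate 1 or mut9 replicate 2 (log2 fold changes 0.26 to 0.39, adjusted p = 0.0548 to 0.211) for mut9 and without DAF replicate 1, DAF replicate 3 or iEF replicate 3 (log2 fold changes 0.37 to 0.47, adjusted p = 0.0512 to 0.0933) for DAF. With only the compared groups in the fit neither was called (adjusted p = 0.142 and 0.109), and the mut9 call was lost without the replicate block as well (adjusted p = 0.0527). EPHA1 was not called against iEF, and EPHA6, EPHA8, EPHA10 and EPHB6 had at most 7 counts in any library.

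Of the 8 ephrins, 3 were higher and 3 lower with endo-EF (37.5% each way), where 18.7% of all genes were higher and 22.4% lower. EFNB1 was at 31.9, 28 and 25.6 CPM in iEF, 91.2, 122 and 75.4 CPM in iLuc and 180, 141 and 176 CPM in WT-EF. It was at 93.8, 101 and 69.5 CPM in mut9, 51.5, 51.1 and 49 CPM in DAF and 34.4, 32.5 and 34.2 CPM in Δ22. All libraries of WT-EF were above those of iLuc, and those of DAF lay between the iEF and mut9 libraries. The differences from iEF were a log2 fold change of 1.75 ± 0.15, adjusted p = 4.36e-09 for endo-EF, 2.55 ± 0.15 for WT-EF, 1.62 ± 0.15 for mut9 and 0.83 ± 0.14 for DAF.

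EFNB3 was at 3.34, 5.82 and 2.86 CPM in iEF and 15.1, 16.3 and 11.8 CPM in iLuc (log2 fold change 1.88 ± 0.21, adjusted p = 2.81e-07). EFNA3 was at 0.49, 1.03 and 0.567 CPM in iEF and 1.82, 3.14 and 3.03 CPM in iLuc (log2 fold change 1.94 ± 0.28, adjusted p = 8.97e-06), although 43.9% of its exon bases are shared with another gene. Neither gene's groups overlapped. EFNA1, the ligand of EPHA2, was at 3.1, 11.3 and 3.84 CPM in iEF and 0.565, 0.597 and 0.902 CPM in iLuc (log2 fold change -3.02 ± 0.43, adjusted p = 6.62e-06). EFNB2, an ephrin of arteries and of the nervous system, ranged widely within iEF (12.8, 2.72 and 28.3 CPM) and was at 1.23, 0.641 and 3.41 CPM in iLuc (log2 fold change -2.97 ± 0.50, adjusted p = 5.12e-05). The third iLuc library was above the second iEF library for EFNB2, and 36.4% of its exon bases are shared with a gene on the opposite strand. EFNA5 was at 27.7, 43.8 and 25.4 CPM in iEF and 7.29, 13.5 and 10.7 CPM in iLuc (log2 fold change -1.61 ± 0.20, adjusted p = 1.18e-06), and was lower with WT-EF (-0.79 ± 0.19), mut9 (-0.83 ± 0.20) and DAF (-0.93 ± 0.20) too. The mut9 call for EFNA5 was lost without mut9 replicate 2 (log2 fold change -0.68, adjusted p = 0.0582).

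Neuropilins are the ligand-binding co-receptors of class 3 semaphorins and also bind vascular endothelial growth factors. NRP1 (Ensembl ENSG00000099250; chr10:33466420-33625190, hg19) was at 375, 225 and 375 CPM in iEF, 18.8, 27.8 and 25.2 CPM in iLuc and 112, 75.8 and 103 CPM in WT-EF. It was at 217, 155 and 242 CPM in mut9, 418, 284 and 297 CPM in DAF and 417, 388 and 299 CPM in Δ22. NRP1 was thus lowest in iLuc, partly lowered in WT-EF, and in DAF and Δ22 within or above the iEF range. Relative to iEF there was a log2 fold change of -3.72 ± 0.22, adjusted p = 2.25e-11 for endo-EF and -1.74 ± 0.20 for WT-EF. The mut9 value of -0.66 ± 0.19 was called, but was lost without iEF replicate 1, iEF replicate 3, mut9 replicate 1 or mut9 replicate 2 (log2 fold changes -0.65 to -0.54, adjusted p = 0.0831 to 0.151) and with ComBat-adjusted counts (adjusted p = 0.134).

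NRP2 was at 32, 105 and 31.6 CPM in iEF, with the second library above the others, and at 1.46, 2.63 and 2.05 CPM in iLuc. It was at 2.98, 5.52 and 4.08 CPM in WT-EF, 4.62, 3.46 and 6.75 CPM in mut9 and 5.51, 12.9 and 7.35 CPM in DAF. In DAF-mut9 it was at 6.57, 9.33 and 14.4 CPM and in Δ22 at 10.1, 20.3 and 7.47 CPM. No library of any other group reached the iEF range. The log2 fold change was -4.66 ± 0.40 with endo-EF, -3.63 ± 0.37 with WT-EF and -3.29 ± 0.37 with mut9. Δ22 gave -2.07 ± 0.34, DAF-mut9 -2.32 ± 0.35 and DAF -2.63 ± 0.35, and all 6 values passed the threshold. The endothelial marker sum was also higher in iEF than in iLuc, as given above, and its part in the neuropilin and ROBO4 values was not tested.

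Plexins are the signalling receptors of the semaphorins, and 7 of 9 (77.8%) were lower with endo-EF while none was higher, where 18.7% of all genes were higher and 22.4% lower. PLXNA2 (Ensembl ENSG00000076356; chr1:208195587-208417729, hg19) was at 22.6, 10.2 and 23.5 CPM in iEF and 0.128, 0.0663 and 0.1 CPM in iLuc, where it had 5, 3 and 4 counts. It was at 4.23, 1.55 and 4.76 CPM in WT-EF, 6.4, 5.35 and 14.4 CPM in mut9 and 19.5, 15.2 and 20.1 CPM in DAF. PLXNA2 was nearly absent only in iLuc, and DAF lay in the iEF range. The difference from iEF was a log2 fold change of -7.50 ± 0.39, adjusted p = 3.73e-12 for endo-EF, -2.43 ± 0.25 for WT-EF and -1.13 ± 0.24 for mut9.

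PLXNA4, a receptor for class 3 and class 6 semaphorins, was at 22.3, 21.7 and 14.1 CPM in iEF and 0.128, 0.309 and 0.0501 CPM in iLuc, with 5, 14 and 2 counts. In WT-EF it was at 3.29, 1.28 and 3.22 CPM, in mut9 at 5.2, 3.19 and 5.15 CPM and in DAF at 11.8, 4.4 and 8.04 CPM. DAF-mut9, at 26.2, 19.8 and 17.1 CPM, and Δ22, at 29.4, 15.2 and 16 CPM, overlapped iEF. PLXNA4 was lower with endo-EF (log2 fold change -6.82 ± 0.44, adjusted p = 8.05e-11), WT-EF (-2.95 ± 0.32), mut9 (-2.13 ± 0.31) and DAF (-1.34 ± 0.30), and the DAF call was lost without DAF replicate 2 (log2 fold change -1.09, adjusted p = 0.064) and with ComBat-adjusted counts (adjusted p = 0.187).

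PLXNA1 went from 164, 166 and 144 CPM in iEF to 52.8, 76.6 and 54.2 CPM in iLuc (log2 fold change -1.38 ± 0.12, adjusted p = 9.04e-09). The other plexins that were lower with endo-EF were PLXNB3 (-2.69 ± 0.33), PLXNC1 (-1.21 ± 0.19), PLXNA3 (-1.15 ± 0.14) and PLXNB2 (-0.72 ± 0.11). PLXNB3, at most 1.37 CPM in any library, shares 20.4% of its exon bases with another gene. PLXNB1 and PLXND1 were not called for endo-EF, with values of -0.16 ± 0.14 and 0.23 ± 0.22.

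Class 3 semaphorins, the secreted ligands of the neuropilin and plexin receptors, were lower with endo-EF for 3 of 7 genes (42.9%) and higher for 1 (14.3%), where 18.7% of all genes were higher and 22.4% lower. SEMA3A, a growth cone repellent, was at 340, 461 and 369 CPM in iEF and 89.9, 110 and 39.4 CPM in iLuc (log2 fold change -2.33 ± 0.22, adjusted p = 2.26e-08). In WT-EF it was at 310, 271 and 211 CPM (-0.57 ± 0.21), and in mut9 at 447, 384 and 407 CPM, within the iEF range. SEMA3A was thus lowest in the 3 iLuc libraries, and the WT-EF call was lost without WT-EF replicate 1, WT-EF replicate 2, WT-EF replicate 3, iEF replicate 2 or iEF replicate 3 (log2 fold changes -0.67 to -0.49, adjusted p = 0.0533 to 0.175). It was lost, too, without the replicate block (adjusted p = 0.0745) and with ComBat-adjusted counts (adjusted p = 0.0549). SEMA3C was at 87.5, 165 and 121 CPM in iEF and 35, 34.9 and 22.3 CPM in iLuc (log2 fold change -2.02 ± 0.22, adjusted p = 2.47e-07). SEMA3B was at 2.8, 7.51 and 2.78 CPM in iEF and 1.95, 3.36 and 0.676 CPM in iLuc, with overlapping ranges (log2 fold change -1.12 ± 0.33, adjusted p = 0.0086). The SEMA3B call was lost without iEF replicate 2 (log2 fold change -0.72, adjusted p = 0.108), and without iLuc replicate 3 its log2 fold change was -0.73.

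SEMA3D was the exception in its class. It was at 11.3, 11.6 and 11.5 CPM in iEF, 75.4, 55.7 and 42.6 CPM in iLuc and 20.2, 21.2 and 22.2 CPM in WT-EF. It was at 21.2, 27.6 and 17.9 CPM in mut9 and 28.8, 24 and 26.3 CPM in DAF, 42.8, 43.6 and 35.2 CPM in DAF-mut9 and 37.7, 51.7 and 39.8 CPM in Δ22. Every one of these groups was above iEF, and Δ22 was above WT-EF. Endo-EF gave a log2 fold change of 2.32 ± 0.17, adjusted p = 7.56e-10, WT-EF one of 0.89 ± 0.17 and mut9 one of 0.94 ± 0.17. In Δ22 it was 1.90 ± 0.17, in DAF-mut9 1.81 ± 0.17 and in DAF 1.20 ± 0.17, each past the threshold. SEMA3F was called only with mut9 (log2 fold change -0.89 ± 0.20, adjusted p = 0.00324) among the comparisons with iEF, and SEMA3E and SEMA3G were at or below 0.27 CPM in every library.

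Among the 13 semaphorins of other classes, 5 were higher (38.5%) and 4 lower (30.8%) with endo-EF, where 18.7% of all genes were higher and 22.4% lower. SEMA7A, a membrane-anchored semaphorin that signals through integrins and plexin C1, was at 21.9, 11.1 and 19.9 CPM in iEF and 0.231, 0.53 and 0.401 CPM in iLuc. It was at 2.96, 2.03 and 2.63 CPM in WT-EF, 4.86, 3.29 and 5.15 CPM in mut9 and 8.49, 7.87 and 10.4 CPM in DAF. DAF-mut9 (17.3, 19.1 and 16.6 CPM) and Δ22 (13.8, 15.1 and 16.3 CPM) lay in the iEF range, and the other 4 groups below it. The reductions were a log2 fold change of -5.44 ± 0.28, adjusted p = 3.76e-12 for endo-EF, -2.78 ± 0.23 for WT-EF, -1.98 ± 0.22 for mut9 and -0.97 ± 0.21 for DAF. The DAF call was lost with ComBat-adjusted counts (-0.91, adjusted p = 0.155).

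SEMA4B went from 40.2, 44.3 and 34.1 CPM in iEF to 2.59, 3.87 and 2.73 CPM in iLuc (log2 fold change -3.69 ± 0.26, adjusted p = 2.88e-10). SEMA4C, a plexin B2 ligand, went from 27, 28.8 and 29.8 CPM to 16, 25.4 and 19.6 CPM (log2 fold change -0.49 ± 0.14, adjusted p = 0.00669), a small change with no overlap that was not called with only the compared groups in the fit (adjusted p = 0.0801). SEMA6A, a ligand of plexins A2 and A4, was at 1.89, 1.81 and 2.73 CPM in iEF and 6.63, 7.29 and 11.9 CPM in iLuc (log2 fold change 1.98 ± 0.23, adjusted p = 3.81e-07). SEMA6B was at 0.49, 1.97 and 0.243 CPM in iEF and 2.21, 4.49 and 2.18 CPM in iLuc (log2 fold change 1.84 ± 0.46, adjusted p = 0.00286). SEMA4G was at 0.957, 1.1 and 0.567 CPM in iEF and 2.9, 4 and 2.48 CPM in iLuc (log2 fold change 1.84 ± 0.30, adjusted p = 4.27e-05), with 28% of its exon bases shared with a gene on the opposite strand. In all 5 of these genes the ranges of iEF and iLuc did not overlap. SEMA4A was also called higher (1.35 ± 0.33), and without iLuc replicate 1 its log2 fold change was 0.90.

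SEMA5B and SEMA5A rested on few counts. SEMA5B had 3, 2 and 0 counts in the iEF libraries, 33, 76 and 136 in iLuc, 6, 11 and 16 in WT-EF and 33, 19 and 24 in DAF, and was called higher in these 3 groups. The WT-EF call was lost without WT-EF replicate 3 (adjusted p = 0.0667) or iEF replicate 3 (adjusted p = 0.123). SEMA5A had 9, 12 and 13 counts in iEF, 1, 1 and 1 in iLuc and 1, 2 and 1 in WT-EF, and was called lower in both. For these genes the fold changes are drawn in figures only and are not printed in the text. SEMA4D was called in no comparison (endo-EF 0.31 ± 0.30). SEMA4F was higher with mut9 (0.63 ± 0.15) and DAF (0.54 ± 0.15), and SEMA6C with WT-EF (0.62 ± 0.22) and mut9 (0.73 ± 0.22). The SEMA4F calls were lost without mut9 replicate 2 (log2 fold change 0.55, adjusted p = 0.0523) for mut9 and without DAF replicate 1, DAF replicate 3, iEF replicate 1 or iEF replicate 2 (log2 fold changes 0.46 to 0.51, adjusted p = 0.0991 to 0.162) for DAF. For SEMA6C, WT-EF was no longer called without WT-EF replicate 1, WT-EF replicate 2, iEF replicate 1, iEF replicate 2 or iEF replicate 3 (log2 fold changes 0.49 to 0.69, adjusted p = 0.0507 to 0.172), nor mut9 without iEF replicate 1, iEF replicate 3, mut9 replicate 1, mut9 replicate 2 or mut9 replicate 3 (log2 fold changes 0.66 to 0.78, adjusted p = 0.0549 to 0.11). Without the replicate block neither SEMA6C value was called (adjusted p = 0.0829 and 0.0769). SEMA6D was not called with endo-EF, but was lower with DAF (-1.06 ± 0.31) and DAF-mut9 (-1.31 ± 0.31). The first of these SEMA6D calls was lost without DAF replicate 2, DAF replicate 3, iEF replicate 2 or iEF replicate 3 (log2 fold changes -1.02 to -0.68, adjusted p = 0.112 to 0.249) or with ComBat-adjusted counts (adjusted p = 0.0743), and the second without DAF-mut9 replicate 1, DAF-mut9 replicate 2, DAF-mut9 replicate 3, iEF replicate 2 or iEF replicate 3 (log2 fold changes -1.41 to -0.93, adjusted p = 0.0707 to 0.131).

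Among the ROBO receptors and their SLIT ligands, ROBO2 was higher with endo-EF while ROBO3, ROBO4, SLIT2 and SLIT3 were lower. ROBO2 (Ensembl ENSG00000185008; chr3:75955846-77699115, hg19) was at 12.3, 6.98 and 10.8 CPM in iEF and 51.1, 71.7 and 42.2 CPM in iLuc. It was at 146, 149 and 169 CPM in WT-EF and 148, 174 and 144 CPM in mut9, above every iLuc library. In DAF it was at 95.5, 63.5 and 66 CPM, in DAF-mut9 at 38.2, 36.8 and 30.9 CPM and in Δ22 at 31, 31.4 and 34.3 CPM. All groups were above iEF without overlap. Endo-EF gave a log2 fold change of 2.45 ± 0.20, adjusted p = 4.07e-09, WT-EF one of 3.95 ± 0.21 and mut9 one of 3.95 ± 0.21. In Δ22 it was 1.69 ± 0.20, in DAF-mut9 1.81 ± 0.20 and in DAF 2.89 ± 0.21, each past the threshold.

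ROBO4, the endothelial member of the family, was at 4.22, 1.72 and 17.7 CPM in iEF and 0.154, 0.133 and 0.0752 CPM in iLuc (log2 fold change -5.70 ± 0.70, adjusted p = 1.07e-06). Its level in the third iEF library was several times that in the others, and 18% of its exon bases are shared with a gene on the opposite strand. ROBO3 was at 5.83, 7.92 and 5.76 CPM in iEF and 4.06, 4.4 and 1.63 CPM in iLuc (log2 fold change -0.95 ± 0.29, adjusted p = 0.0111), and the call was lost without iLuc replicate 3 (log2 fold change -0.59, adjusted p = 0.0657). SLIT2 was at 78, 130 and 118 CPM in iEF and 55.3, 52 and 41 CPM in iLuc (log2 fold change -1.12 ± 0.20, adjusted p = 0.000111). For SLIT2 the groups did not overlap. SLIT3 had 2, 3 and 28 counts in iEF and 2, 2 and 0 in iLuc, and its call was lost without iEF replicate 3, iLuc replicate 2 or iLuc replicate 3 (adjusted p = 0.0702 to 0.49). ROBO1, at 184, 257 and 235 CPM in iEF and 227, 224 and 146 CPM in iLuc, was not called for endo-EF (-0.19 ± 0.17). It was called lower in WT-EF than in iEF (-0.66) and higher in DAF than in WT-EF (0.66). Both ROBO1 calls were kept in all 6 fits with 1 library left out. With ComBat-adjusted counts the values were -0.43 and 0.41, both still called.

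The ligand and receptor of a pair did not always go the same way. In 21 textbook pairs, both partners were lower with endo-EF in 7, the ligand was lower and the receptor higher in 5, and the ligand was higher and the receptor lower in 2. In the other pairs 1 or both partners were not called. The 7 pairs include SEMA5A with PLXNB3 and SLIT3 with ROBO4, whose ligands rest on few counts. SLIT3 kept its call in only 3 of 6 fits with 1 library left out. SEMA3A with NRP1 (-2.33 and -3.72) and EFNA1 with EPHA2 (-3.02 and -1.49) were lower together. NTN1 was lower (-1.92) while its receptors DCC (2.76) and NEO1 (1.77) were higher. SEMA6A was higher (1.98) while PLXNA4 was lower (-6.82), and EFNB1 was higher (1.75) while EPHB2 was lower (-2.10). Several pairs share a gene, so they are not independent.

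**Figure D3:**
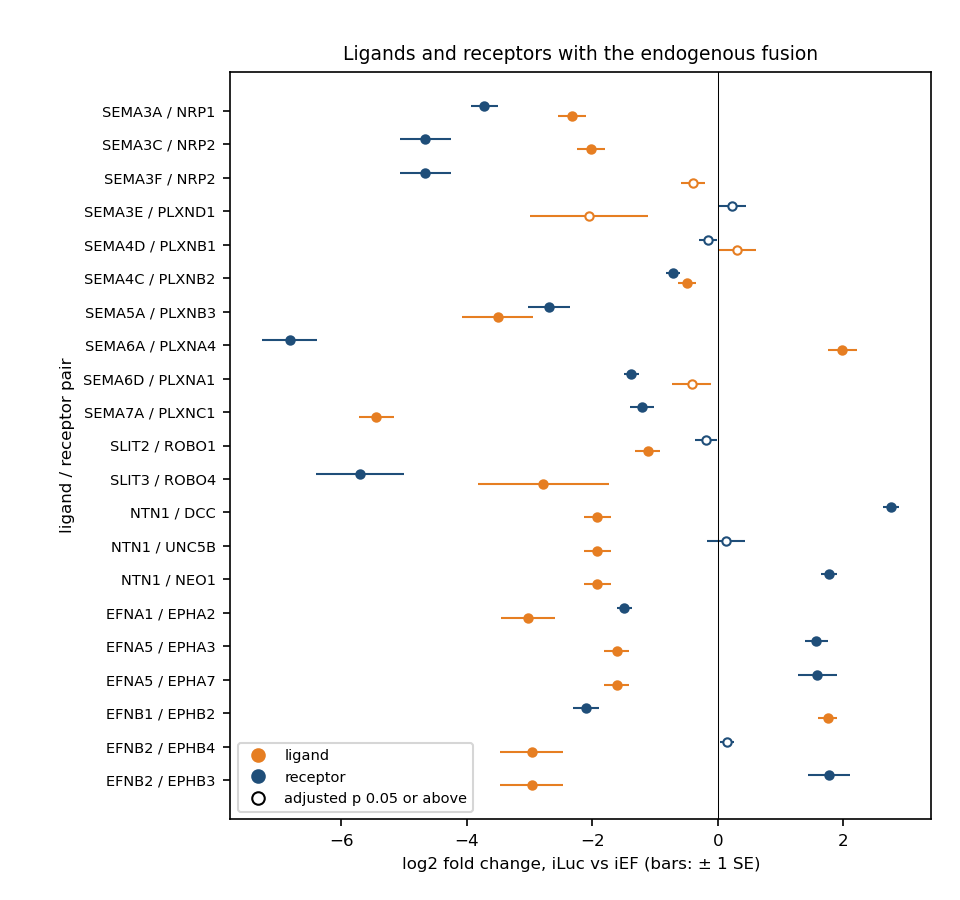
Log2 fold change in iLuc relative to iEF (horizontal axis, bars ± 1 SE) of the ligand (orange) and receptor (blue) of 21 pairs (vertical axis), with open points for an adjusted p of 0.05 or above. Points left of 0 are lower with endo-EF; both partners lie left of 0 and are called in 7 pairs, and the SEMA3E, SEMA5A and SLIT3 values rest on 3 counts or fewer in each iLuc library.

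Direct comparison of WT-EF with iLuc asked how far the re-expressed fusion matched the endogenous one. Of the members, 20 were higher in WT-EF and 11 lower, together 44.9%, where 18.3% of all genes tested were called. PLXNA2 (log2 fold change 5.07 ± 0.41, adjusted p = 2.13e-08), PLXNA4 (log2 fold change 3.87 ± 0.45, adjusted p = 3.07e-06), SEMA7A (2.66 ± 0.28) and NRP1 (1.98 ± 0.20) were higher in WT-EF than in iLuc. With ComBat-adjusted counts the log2 fold changes were 2.37 for PLXNA4 and 1.77 for SEMA7A, both still called. These are genes that were lower with endo-EF, and each remained below iEF in WT-EF, as given above. UNC5D was at 3.96, 5.73 and 6.78 CPM and SEMA6B at 0.649, 0.895 and 0.442 CPM in WT-EF, below every iLuc library. UNC5D (log2 fold change -1.85 ± 0.40, adjusted p = 0.00208) and SEMA6B (log2 fold change -2.11 ± 0.47, adjusted p = 0.00286) were lower in WT-EF. ROBO2 (1.50 ± 0.19), EPHA4 (1.49 ± 0.23), EPHA5 (1.13 ± 0.24) and EFNB1 (0.80 ± 0.14) were higher in WT-EF than with the endogenous fusion.

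Shortening of the EWS domain was tested by setting mut9 against WT-EF. In mut9 relative to WT-EF, 12 members were higher and 2 lower, together 20.3%, against 6.15% of all genes tested. NTN4 (log2 fold change 1.65 ± 0.18, adjusted p = 1.45e-05), PLXNA2 (1.31 ± 0.25) and NRP1 (1.08 ± 0.20) were higher in mut9. EFNA1, at 0.961, 1.11 and 0.761 CPM in WT-EF and 3.86, 1.79 and 3.34 CPM in mut9, was higher as well (log2 fold change 1.75 ± 0.41, adjusted p = 0.012), a call lost without WT-EF replicate 2, WT-EF replicate 3 or mut9 replicate 1 (log2 fold changes 1.19 to 1.67, adjusted p = 0.0873 to 0.157). EFNB1 (log2 fold change -0.93 ± 0.14, adjusted p = 0.000405) and NEO1 (log2 fold change -0.67 ± 0.13, adjusted p = 0.0024) were the 2 members lower in mut9. The count fell from 14 to 5 without WT-EF replicate 2, to 7 without WT-EF replicate 3 and to 7 without mut9 replicate 1.

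Tyrosine substitution was tested in the full-length and in the shortened form. In DAF relative to WT-EF, 24 were higher and 13 lower, together 53.6%, against 24.9% of all genes tested. ROBO4 was at 0.288, 0.339 and 0.467 CPM in WT-EF and 1.26, 3.07 and 3.38 CPM in DAF, with no overlap. NTN4 (log2 fold change 3.61 ± 0.19, adjusted p = 2.23e-10), ROBO4 (log2 fold change 2.81 ± 0.60, adjusted p = 0.00146), PLXNA2 (2.46 ± 0.25) and SEMA7A (1.81 ± 0.23) were higher in DAF. EPHA5 (log2 fold change -2.60 ± 0.26, adjusted p = 2.82e-07), EFNB1 (log2 fold change -1.72 ± 0.15, adjusted p = 3.86e-08), DCC (-1.66 ± 0.13) and NEO1 (-1.62 ± 0.13) were lower. In the shortened form, DAF-mut9 relative to mut9, 12 were higher and 12 lower, together 34.8%, against 9.83% of all genes. PLXNA4 (log2 fold change 2.23 ± 0.31, adjusted p = 3.9e-05) and SEMA7A (log2 fold change 2.02 ± 0.22, adjusted p = 2.42e-06) were higher, and EPHA5 (log2 fold change -2.82 ± 0.26, adjusted p = 3.46e-07) and ROBO2 (log2 fold change -2.14 ± 0.20, adjusted p = 2.89e-07) were lower. Without DAF-mut9 replicate 2 this count was 14 in place of 24.

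The difference between these effects was tested as an interaction, although the tyrosines changed in DAF and in DAF-mut9 are not the same set. It was called for 9 members (13% of them), 1 positive and 8 negative, against 3.33% of all genes tested. NTN4 was higher in DAF than in WT-EF by more than it was higher in DAF-mut9 than in mut9 (interaction -1.93 ± 0.24, adjusted p = 7.94e-05). EPHB3 had no call between DAF and WT-EF (0.56 ± 0.31) and was lower in DAF-mut9 than in mut9 (-1.67 ± 0.34), with an interaction of -2.23 ± 0.47 (adjusted p = 0.00827). Both were called with each of the 12 libraries left out in turn. In DAF and DAF-mut9, EFNA1 was at 3.19, 8.59 and 5.44 CPM and 2.72, 3.65 and 4.16 CPM. The EFNA1 interaction (-2.39 ± 0.55, adjusted p = 0.0167) was lost without DAF replicate 2, DAF-mut9 replicate 1, DAF-mut9 replicate 2, WT-EF replicate 2, WT-EF replicate 3 or mut9 replicate 1 (log2 fold changes -2.39 to -1.80, adjusted p = 0.0515 to 0.113). NEO1 (0.67 ± 0.18, adjusted p = 0.0447) was called in 2 of these 12 fits, with adjusted p up to 0.154 in the others, and was not called without the replicate block (adjusted p = 0.0641). Over the 12 fits the count of members called ranged from 2 to 7.

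**Figure D4:**
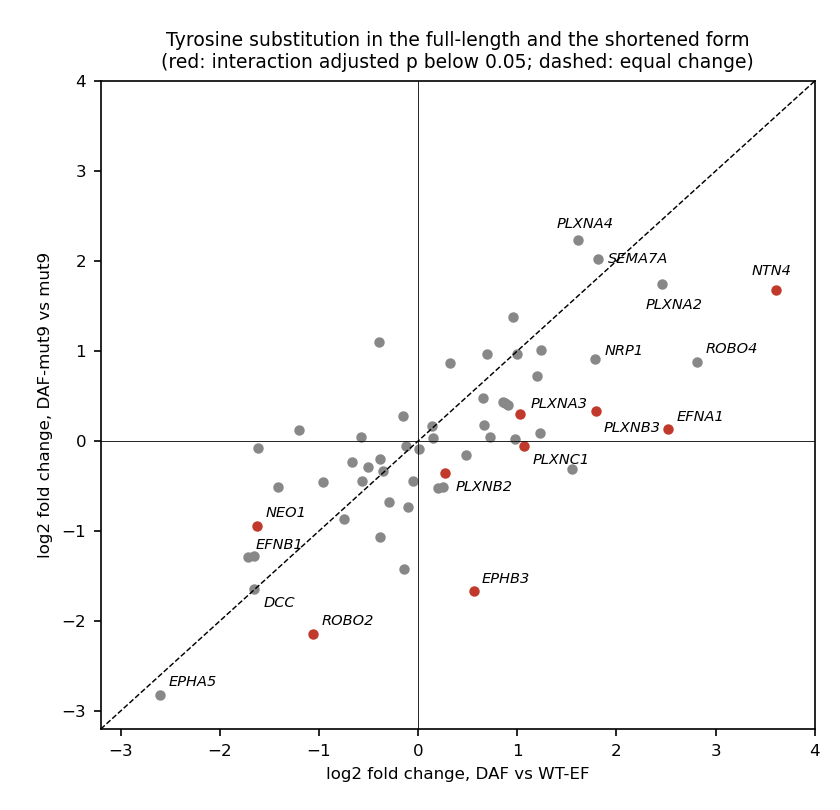
Log2 fold change of DAF relative to WT-EF (horizontal axis) against that of DAF-mut9 relative to mut9 (vertical axis) for the 58 members with a mean of 1 CPM or more in at least 1 group. Red points have an interaction adjusted p below 0.05 and the dashed line marks equal change; EPHA5 and DCC lie close to it, while NTN4, EPHB3 and EFNA1 lie far below it.

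The remaining direct comparisons set the mutants against each other and against the negative control. In mut9 relative to DAF, 6 members were higher and 6 lower, together 17.4%, against 6.61% of all genes tested. SEMA3F, a ligand of neuropilin-2, was at 2.27, 1.99 and 2.47 CPM in mut9 and 5.02, 6.9 and 7.32 CPM in DAF. EPHA5 (log2 fold change 2.30 ± 0.26, adjusted p = 1.17e-05) and DCC (log2 fold change 1.60 ± 0.13, adjusted p = 5.55e-07) were higher in mut9, and NTN4 (log2 fold change -1.96 ± 0.18, adjusted p = 1.96e-06) and SEMA3F (log2 fold change -1.50 ± 0.20, adjusted p = 6.56e-05) were lower. In DAF relative to Δ22, 2 members were higher and 2 lower (5.8%), against 0.972% of all genes. EPHB3 (log2 fold change 2.18 ± 0.34, adjusted p = 0.00124) and ROBO2 (log2 fold change 1.21 ± 0.19, adjusted p = 0.00149) were higher in DAF, and these calls were kept with each library left out in turn. PLXNA4 (-1.33 ± 0.30) was lower, but lost its call with any 1 of the 6 libraries left out (adjusted p up to 0.231), without the replicate block (adjusted p = 0.144) and with ComBat-adjusted counts (adjusted p = 0.397). SEMA3D (-0.70 ± 0.16) was also lower, a call lost without DAF replicate 1, DAF replicate 2, DAF replicate 3, Δ22 replicate 2 or Δ22 replicate 3 (log2 fold changes -0.77 to -0.58, adjusted p = 0.0855 to 0.308) and without the replicate block (adjusted p = 0.0831). In DAF-mut9 relative to Δ22 no member and 0% of all genes were called by edgeR, none by DESeq2 among the members, and 0 of the 69 members had an unadjusted p below 0.05.

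Genes downstream of the guidance receptors were read from 6 lists of 115 effectors and further cues, all of which were tested. With endo-EF, 27 were higher and 51 lower (23.5% and 44.3%), against 18.7% and 22.4% of all genes. These genes are protein-coding, and of 16417 protein-coding genes tested 4056 were higher and 4919 lower. Against those shares the effectors show no excess of higher genes. WT-EF gave 21 higher and 44 lower (18.3% and 38.3%), against 11.4% and 16.9%. With mut9 there were 15 higher and 25 lower (13% and 21.7%), against 6.22% and 8.33%, and with DAF 14 and 8 (12.2% and 6.96%), against 3.41% and 4.02%. DAF-mut9 gave 4 and 4 (3.48% each), against 1.26% and 2.14%, and Δ22 gave 3 and 3 (2.61% each), against 0.881% and 1.79%. By list, the Eph and ephrin effectors had 4 of 15 higher and 9 lower with endo-EF, and the CRMP and MICAL effectors of semaphorins 5 of 18 higher and 7 lower. The netrin and DCC effectors had 3 of 10 higher and 5 lower, the SLIT and ROBO effectors 2 of 14 higher and 7 lower, and the other cues and receptors 10 of 32 higher and 10 lower. MICAL2, an actin-oxidising enzyme of semaphorin signalling (-7.63 ± 0.25), L1CAM, a neural adhesion molecule (-5.98 ± 0.24), and NGEF, a guanine nucleotide exchange factor that acts with EphA receptors (-4.90 ± 0.24), were lower with endo-EF. DPYSL5, a collapsin response mediator (3.22 ± 0.22), and DAPK1, a kinase that acts with UNC5 receptors (3.18 ± 0.16), were higher. Neuronal markers did not move together. SYT1 was at 73.7, 90.9 and 138 CPM in iEF and 319, 340 and 179 CPM in iLuc, while GAP43 was lower in iLuc, at 36.5, 28.1 and 20.2 CPM and 19.5, 5.75 and 8.84 CPM. In the groups with a cDNA, mean GAP43 was above both, from 122 CPM in Δ22 to 183 CPM in mut9. Mean SYT1 in those groups ran from 94.1 CPM in Δ22 to 233 CPM in mut9. STMN2 averaged 1.09 CPM in iEF and 0.0442 CPM in iLuc, RBFOX3 0.419 and 0.241 CPM, and SNAP25 8.31 and 8.84 CPM. The sum of the 5 was 117 to 171 CPM in iEF and 196 to 355 CPM in iLuc, and the part of these markers in the values above was not tested.

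Levels between genes were compared per kilobase of exon. In iEF the highest members were EPHA2 (mean 42.4 CPM per kb), SEMA3A (42.1), NTN4 (30.6) and NRP1 (28.2), and in iLuc they were EFNB1 (29.1), ROBO1 (18), EPHA2 (15.1) and NEO1 (15). EFNA4 (0.19 ± 0.21 with endo-EF), UNC50 (-0.12 ± 0.13) and UNC5CL (0.92 ± 0.55) were called in none of the 14 comparisons, and EFNA2 averaged at most 0.386 CPM in any group. Of the 69 members, 45 had a mean of 1 CPM or more in every group and 11 were below 1 CPM in every group.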

How the data were processed

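RNA was sequenced from 21 A673 libraries, 3 in each of 7 groups. The authors aligned paired-end reads to hg19 with STAR (version 2.5.1b per the processing notes) and counted them per Ensembl gene with htseq-count in intersection-strict mode, and deposited the raw counts. The annotation release and the strand setting are not given in the sources used here, so overlapping and antisense genes remain uncertain. A second deposited table holds a signal, the counts adjusted by the authors with ComBat over the replicate sets, and served as an alternative only. The authors' table of their own comparisons (log2 fold changes, standard errors, adjusted p-values and mean levels) was not used. The mut9d columns were taken to be DAF-mut9.

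Genes averaging at least 1 count per library (30549) were tested with edgeR 4.0.16 in R 4.3.3, using TMM factors, 1 fit of all 21 libraries with the replicate set as a block, and the quasi-likelihood test for 14 contrasts. The block follows the authors' adjustment for replicate set. Calls needed a Benjamini-Hochberg adjusted p below 0.05 over all genes tested. The study describes 3 replicate knockdown and rescue experiments in a single cell line. The block removes the shift common to all libraries of a replicate set. The p-values therefore rest on the variation that remains within the sets, with dispersion estimated over all 21 libraries. On simulated counts for iLuc and iEF, 50.5% of 200 genes changed 2-fold and 95.5% of 200 changed 4-fold were recovered over 30549 genes. False calls made up 8.18% and 4.5% of the calls. The simulation held no replicate effect and changed few genes, all above a higher count minimum. In the data 41.1% of genes were called, so the recovered shares do not give the power there. Library values are CPM, and precision is limited by counting error at low counts. Alternatives used DESeq2 1.42.0, limma 3.58.1, RLE factors, other filters, no block, the compared groups alone, a 2-fold minimum and each library left out. Members and gene lists were chosen with earlier results of these data known. Library values were given for up to 3 members each way per family with endo-EF, and members called in the direct comparisons by up to 2 each way, among those averaging 1 CPM or more, with further members added after their values were seen. Exon overlaps and GGAA runs were read from the GRCh37 annotation and genome. The separate counts of 1 effector list are not reported here.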

Additional observations from a re-analysis of the deposited data

Results flagged for a closer look

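For 9 members the effect of tyrosine substitution differed between the shortened and the full-length form, by edgeR's test of the interaction (log2 scale, 3 libraries in each of 4 groups, adjusted p below 0.05). A negative value means that the change in DAF-mut9 relative to mut9 was lower than that in DAF relative to WT-EF. The value was -2.39 for EFNA1, -2.23 for EPHB3 and -1.93 for NTN4. Among the plexins it was -1.46 for PLXNB3, -1.12 for PLXNC1, -0.73 for PLXNA3 and -0.63 for PLXNB2. ROBO2 had a value of -1.08, and NEO1 was the only positive one, at 0.67. Of the 12 fits that each left out 1 library, EPHB3 and NTN4 were called in 12, PLXNC1 in 7, EFNA1 in 6, ROBO2 in 3, NEO1 in 2, PLXNB3 and PLXNB2 in 1 each and PLXNA3 in 0.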

How the results depend on the processing

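Direction was checked for the named members only, and none of their called results changed direction under an alternative. Of 3070 values for 218 named member results, 2775 kept the call and 295 lost it. Of the 295, 63 fell below the 2-fold minimum with an unchanged adjusted p. A value for which the tool gave no adjusted p was counted as kept. Counts of members called moved by over 1.5 times as follows. A 2-fold minimum gave 15 for mut9 and 10 for DAF against iEF, 19 for WT-EF against iLuc, 6 for mut9 against WT-EF, 24 for DAF against WT-EF and 15 for DAF-mut9 against mut9. With no low-count filter there were 13 for DAF-mut9 and 18 for Δ22 against iEF, 23 for mut9 against WT-EF, 23 for mut9 against DAF, 14 for DAF against Δ22 and 16 for the interaction. DESeq2 gave 10 for DAF-mut9 against iEF and 7 for DAF against Δ22. Fitting only the compared groups gave 33 for mut9 against WT-EF, 14 for DAF against Δ22 and 18 for the interaction. Apart from the 2-fold minimum, which narrows the call by its construction, the cause was not tested. With 1 library left out, counts ranged from 20 to 30 for mut9 against iEF, 5 to 17 for mut9 against WT-EF, 14 to 21 for DAF-mut9 against mut9, 2 to 3 for DAF against Δ22 and 2 to 7 for the interaction. The ComBat-adjusted values with limma, for which no TMM factors were used, shifted the median of all genes by 0.11 (log2) for iLuc against iEF. The shift was 0.144 for WT-EF against iEF and largest, at -0.17, for DAF against WT-EF. Members with few counts cannot show modest changes at this depth.

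Without the replicate block, 2 members were called for DAF against Δ22 and 5 for the interaction, and the other counts stayed within 1.5 times. Deviations from the group means correlated at a median r of 0.166 over 63 pairs of libraries with the same number, 39 of them over 0.1, and of -0.0989 over 126 pairs with different numbers, 18 of them over 0.1. The numbers were therefore not shown to pair every library.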
